A study of Mus musculus with 6 samples.

Results

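The genes described here are 8 of the 31253 genes in the count tables, chosen by symbol: the chemokines Ccl2, Ccl7, Cxcl1, Cxcl2 and Cx3cl1, and the receptors Ccr2, Cxcr2 and Cx3cr1. Their unique molecular identifiers (UMIs, tags that count captured transcripts once) were read in every cell of 6 liver libraries. The libraries came from Stingfl/fl Cdh5-Cre+ mice, in which a Cre recombinase driven by the endothelial Cdh5 promoter deletes a loxP-flanked part of Sting, and from Stingfl/fl Cdh5-Cre- littermates, which carry the same floxed alleles without Cre. There were 3 mice of each genotype, called knockout and control from here on. All 6 were kept on chow until 8 weeks of age and then received western diet with CCl4 (WD-CCl4) for 12 weeks, a model of metabolic dysfunction-associated steatohepatitis (MASH), so no untreated liver was compared.

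CCL2 and CCL7 are ligands of CCR2, the receptor that draws classical monocytes out of the bone marrow into injured tissue. CXCL1 and CXCL2 act on CXCR2, the main chemokine receptor of mouse neutrophils. CX3CL1 is made as a membrane-bound protein that can be shed, and its receptor CX3CR1 is known for monocyte and macrophage subsets. In injured liver these ligands are produced by resident and recruited cells, and many of them are transcribed within minutes to hours of an inflammatory or mechanical stimulus.

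After filtering, 41776 cells from 44656 barcodes remained, between 4764 and 8869 per library, with library totals of 55017937 to 73867890 UMIs and median depths of 4749 to 7569 UMIs per kept cell. Any 2 libraries shared 5 to 25 cell barcodes, at most 0.328% of the smaller one. Cells were clustered without the 8 genes and named from marker lists; 12 of 58 clusters, with 2907 cells, stayed unnamed. The labels give liver sinusoidal endothelial cells, but only 2632 cells were endothelial-like and 213 of those (8.09%) carried sinusoidal markers, against 1206 (45.8%) with venous ones. The 274 hepatocyte-like cells also held cholangiocyte markers, at a summed 11932 to 16364 CPM (counts scaled to a common total). Their mean score for the cholangiocyte list (1.44) was above that for the hepatocyte list (1.25). The name rests on hepatocyte markers among their leading genes, such as Apoa1, Serpina1a and Fgb, and is used with that limit. Sting1 itself was at 27.5, 26.7 and 27.6 CPM in endothelial-like cells of controls 1 to 3 and at 21.7, 14.9 and 22.6 in knockouts 1 to 3. These groups did not overlap, but the difference did not pass the test (log2 difference -0.45, SE 0.175, edgeR adjusted p 0.728). Sting1 also ran lower without overlap in NK/ILC1-like cells (16.3, 15 and 18.9 against 10.7, 8.70 and 9.42 CPM; log2 difference -0.77), in B-like cells (7.32, 7.04 and 9.67 against 4.32, 4.88 and 5.08; -0.74) and in mature dendritic-like cells (12.6, 15.5 and 12.5 against 8.46, 1.70 and 5.33; too few counts to test). Neither tested difference passed (edgeR adjusted p 0.603 in NK/ILC1-like and 0.593 in B-like cells). Of all genes tested in those 2 classes, 6.43% and 6.18% ran lower without overlap. Plasmacytoid dendritic-like cells, with 3 to 17 UMIs per library and too few counts to test, were higher without overlap. The margin there was narrow, with control 3 at 21.2 and knockout 1 at 21.3 CPM. The T-like groups overlapped. Whether these 3-prime reads fall in the deleted part is not given in the sources used here, so Sting1 does not check the genotype labels, and Cre activity was not measured in any class.

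The genes differed in the cell classes that held them, and Cxcl2 shared its leading class with its receptor Cxcr2. The classes holding most UMIs of a gene need not have the highest level per cell, so both are given: the share of a gene's UMIs, and CPM within the summed counts of a class, scaled by the trimmed mean of M values (TMM). In the pooled libraries, mesothelial-like cells held the most Ccl2 and Ccl7, cholangiocyte-like cells the most Cxcl1 and Cx3cl1, T-like cells the most Ccr2, and neutrophil-like cells most of Cxcl2 and Cxcr2. The leading class differed among libraries for some genes. Levels are ranked over the 16 classes for which each library held 10 or more cells, which leaves out the scarce macrophage-like and monocyte-like cells. Endothelial-like cells held 7.22% of the Ccl2, 5.19% of the Ccl7, 6.17% of the Cxcl1, 2.57% of the Cxcl2 and 8.19% of the Cx3cl1 UMIs. With 6 libraries, 24 pairs of neighbouring classes in the order of levels were compared by an exact 2-sided sign-flip permutation test. Of these, 9 pairs had the same order in 6 of 6 libraries, and none passed after Benjamini-Hochberg adjustment (smallest adjusted p 0.0833). Those 9 pairs had a sign-flip p of 0.03125, the smallest that 6 libraries can give. With 9 of 24 pairs at that limit, the adjusted p cannot fall under 0.05, whatever the size of a difference. The orders are therefore descriptions.

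**Figure D1:**
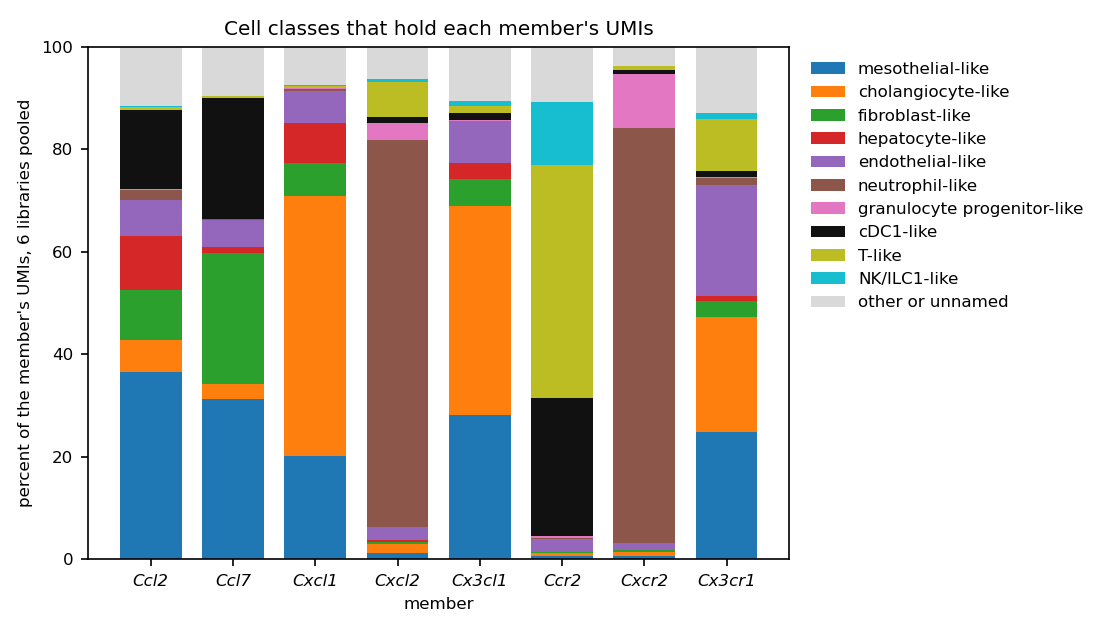
Percent of each gene's UMIs (vertical axis, 6 libraries pooled) held by each cell class (colours) for the 8 genes (horizontal axis). Neutrophil-like cells hold 75.6% of Cxcl2 and 81.0% of Cxcr2, while mesothelial-like cells lead the pooled Ccl2 and Ccl7, and cholangiocyte-like cells the pooled Cxcl1 and Cx3cl1.

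**Figure D2:**
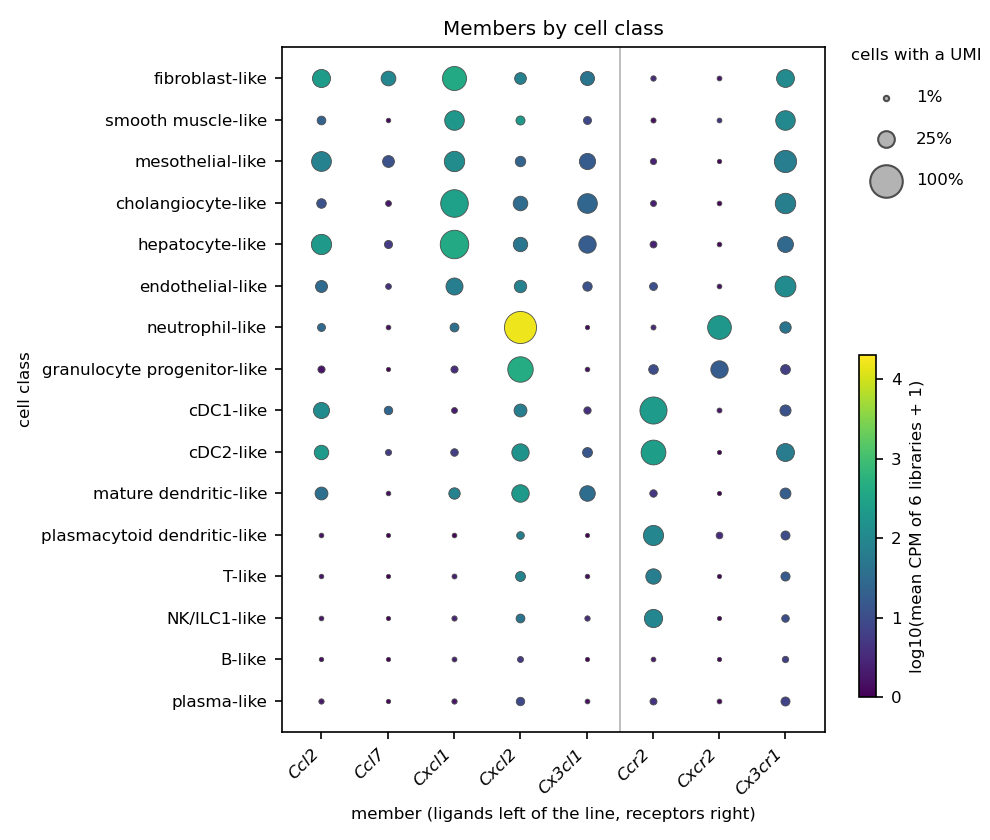
Level of each gene (columns; ligands left of the line, receptors right) in each of 16 cell classes (rows): colour gives log10 of the mean CPM of 6 libraries plus 1, and dot area the percent of cells with a UMI. The brightest dot is Cxcl2 in neutrophil-like cells, at a mean of 15668 CPM.

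Ccl2 (Ensembl ENSMUSG00000035385, chr11:82035571-82037453 on the plus strand of mm10/GRCm38) encodes the principal CCR2 ligand, and its interval overlaps Gm17268 on the opposite strand. In all, 2341 cells held 11274 Ccl2 UMIs, 36.6% of them in mesothelial-like cells, which line the liver surface, and 15.5% in cDC1-like cells (conventional dendritic cells of type 1). Mesothelial-like cells led in each of the 6 libraries, with 28.1 to 52.0%. Per class, Ccl2 averaged 226 ± 129 CPM (SD, n = 6 mice) in fibroblast-like cells, 207 ± 79.6 in hepatocyte-like cells, 203 ± 220 in cDC2-like cells (conventional dendritic cells of type 2) and 111 ± 38.3 in cDC1-like cells. These neighbours in the order did not differ beyond their spread, and by the share of cells with a UMI the hepatocyte-like cells came first. Ccl2 was concentrated in few cells: 29.6% of 537 fibroblast-like cells held a UMI, and 16 of them held 50% of the class total. In cDC1-like cells the share was 23.2%, and 40 cells held 50% of the UMIs. The background share, read in B-like cells, was 0.189%.

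In fibroblast-like cells, which make the collagen-rich matrix, Ccl2 was at 392, 210 and 378 CPM in controls 1 to 3 and at 89.0, 134 and 153.3 in knockouts 1 to 3. All 3 knockouts lay under the lowest control. The means were 326 ± 101 in controls and 126 ± 33.1 in knockouts (SD, n = 3 each), and the fitted level was 2.55-fold lower (log2 difference -1.35, SE 0.286), but this did not pass adjustment over the 7745 genes tested in the class (edgeR adjusted p 0.994), where 0% of genes were called and 4.74% ran lower without overlap. A fit without the filter on low counts did call it (edgeR adjusted p 0.000405), while DESeq2 did not (adjusted p 0.0681). The share of fibroblast-like cells with a Ccl2 UMI overlapped, at 32.1, 16.2 and 40.3% against 13.3, 25.6 and 33.0%.

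Leaving out fibroblast-like cells with leukocyte UMIs gave a log2 difference of -1.14. A list of 24 genes induced by tissue dissociation summed to 43975, 38987 and 54668 CPM in fibroblast-like cells of the controls and 31206, 31165 and 43064 in the knockouts, and all 24 had an estimate below 0 there. The part of this in the Ccl2 difference was not tested.

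Elsewhere Ccl2 overlapped between genotypes. Mesothelial-like cells had 48.8, 84.3 and 144 CPM in controls and 44.6, 81.8 and 64.2 in knockouts (log2 difference -0.54, SE 0.452, edgeR adjusted p 0.605; 0% of 13303 genes called). The antigen-presenting cDC1-like cells had Ccl2 at 125, 56.5 and 156 against 98.6, 85.3 and 147 CPM (log2 difference -0.03, SE 0.352, edgeR adjusted p 0.999; 0% called). Control 3 was the highest library in both classes. In endothelial-like cells, the class the Cdh5 promoter is meant to target, the values were 26.7, 23.4 and 44.2 against 33.1, 26.8 and 21.0 CPM (log2 difference -0.24, SE 0.274, edgeR adjusted p 0.845; 0% of 12223 genes called). Across all 11 classes tested for Ccl2 the log2 differences ran from -1.35 to 0.73.

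Within the endothelium, Ccl2 in plain CPM was at 30.8, 27.5 and 62.4 in venous-like cells of controls and 41.1, 30.5 and 30.6 in knockouts. Sinusoidal-like cells could be read in 4 libraries only, at 91.2 in control 3 and 45.8, 152.7 and 198 in the knockouts. Lymphatic-like cells had 14.4, 36.8 and 21.4 against 39.6, 77.3 and 28.2. Each of these sets overlapped or had too few libraries to compare.

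Ccl7 (ENSMUSG00000035373, chr11:82045712-82047525, plus strand) lies 8.258 kb beyond Ccl2 and encodes a second CCR2 ligand. It was sparser, with 1774 UMIs in 627 cells: 31.2% in mesothelial-like, 25.5% in fibroblast-like and 23.7% in cDC1-like cells. By library, cDC1-like cells led in knockout 1 (40%) and fibroblast-like cells in control 3 (29.6%). Among the 16 classes fibroblast-like cells had the highest level, 92.6 ± 45.6 CPM (SD, n = 6), above cDC1-like cells (24.3 ± 17.7) in 6 of 6 libraries. Its highest correlations across 96 class-by-library sums, among 9675 genes and on log2(CPM + 1), were with the fibroblast genes Lpar1 (r = 0.76), Pdgfra (0.74) and Mfap5 (0.73), a description in which sums of a library share depth and preparation. For Ccl2 the closest were Rin2 (0.79), Rtn1 (0.77) and Anpep (0.76).

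Cells with Ccl2 more often held Ccl7. Among fibroblast-like cells, Ccl7 was found in 35.8% of those with a Ccl2 UMI and 12.2% of those without, and after thinning every cell to 1000 UMIs in 11.9% and 5.65%. In cDC1-like cells the shares were 19.2% and 0.986%, and in mesothelial-like cells 22.5% and 5.86%. The direction was the same in 6 of 6 libraries in each of the 3 classes. After thinning, the pooled shares were 11.1% and 1.48% in cDC1-like cells, where 8 cells held both genes. In mesothelial-like cells they were 1.92% and 0.822%, with 3 cells holding both.

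In endothelial-like cells, Ccl7 was at 4.38, 2.92 and 7.06 CPM in the controls and 1.08, 0.991 and 2.56 in the knockouts, from 11, 14 and 43 against 5, 3 and 16 UMIs. Every knockout lay below every control, which 6.36% of the genes tested in this class did in this direction. The fitted level was 2.93-fold lower (log2 difference -1.55, SE 0.50) and did not pass (edgeR adjusted p 0.728). The share of endothelial-like cells with a Ccl7 UMI was 3.77, 1.52 and 2.37% against 0.881, 0.431 and 0.755%. That separation has an exact permutation p of 0.1, the smallest that 3 against 3 mice can give, and after thinning to 1000 UMIs the groups overlapped.

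By subtype, 50 of the 92 endothelial Ccl7 UMIs lay in venous-like and 40 in lymphatic-like cells. Lymphatic-like cells had the higher level, at 13.1, 10.1 and 10.7 against 6.59, 6.82 and 9.40 plain CPM, with no overlap (exact permutation p 0.1). For endothelial subtypes the share of all genes that separate was not computed. Venous-like cells had 0.716, 0 and 11.8 against 0.784, 0 and 3.54, with control 3 far above the rest. Arterial-like cells had none in any library. Lymphatic-like cells made up 23.1, 23.5 and 6.20% of endothelial-like cells in controls and 6.39, 12.5 and 7.55% in knockouts and overlapped (exact permutation p 0.4). Control 3 had the highest Ccl7 of the class and the lowest lymphatic share. The part of this makeup in the Ccl7 level of the class was not tested.

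In fibroblast-like cells Ccl7 was at 109, 62.1 and 150 CPM in controls and 110, 18.9 and 106 in knockouts (log2 difference -0.47, SE 0.596, edgeR adjusted p 0.994). Those groups overlapped, as did mesothelial-like cells at 7.43, 12.1 and 26.5 against 4.55, 7.73 and 7.14 CPM (log2 difference -1.24, SE 0.496, edgeR adjusted p 0.289). The share of mesothelial-like cells with a Ccl7 UMI did not overlap, at 10.7, 12.0 and 23.5% against 7.89, 10.4 and 10.2% (exact permutation p 0.1), and overlapped after thinning to 1000 UMIs. The genotype difference in endothelial-like cells was then set against that in fibroblast-like and smooth muscle-like cells together, in 1 model with a class by genotype term. The Ccl7 difference was lower by 1.63 in endothelial-like cells (log2 term -1.63, SE 0.744, edgeR adjusted p 1; 0% of 13274 genes called). Against mesothelial-like cells the term was -0.30 for Ccl7, 0.30 for Ccl2 and 0.30 for Cxcl1, and 0% of 14608 genes were called there.

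Cxcl1 (ENSMUSG00000029380, chr5:90891241-90893115) and Cxcl2 (ENSMUSG00000058427, chr5:90903871-90905938) lie 10.755 kb apart on the plus strand and encode neutrophil attractants acting on CXCR2. Their promoters are shown because both ligands are textbook targets of NF-kB, the transcription factor of inflammatory signalling. The sequences are from RefSeq (GRCm38.p6), at chr5:90891095-90891214 and chr5:90903749-90903868, plus strand. They run from 150 to 31 bases before the RefSeq start of transcription. That start is 90891245 for Cxcl1 and 90903899 for Cxcl2, which differ from the gene starts given above. Capitals mark stretches that match the NF-kB consensus on either strand.
Cxcl1: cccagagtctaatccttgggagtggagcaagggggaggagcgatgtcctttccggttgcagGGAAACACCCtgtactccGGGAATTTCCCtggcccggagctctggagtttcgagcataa
Cxcl2: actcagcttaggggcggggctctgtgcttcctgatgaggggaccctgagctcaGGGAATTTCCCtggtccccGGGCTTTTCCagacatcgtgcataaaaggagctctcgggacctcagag
Each stretch of 120 bases held 2 such runs, and the longer run, GGGAATTTCCC, was the same in both. Overlapping matches were joined into 1 run. The consensus occurred in 7.80% of 32851 promoters within 150 bases before the start, and in 12.6% within 250 bases. RefSeq promoters were found for 6 of the 8 genes: Cxcr2 had 1 match, and Ccr2, Cx3cl1 and Cx3cr1 had none in that window. A match is a likeness of letters and no evidence of binding in these cells.

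The pair had different sources. Cxcl1 had 30441 UMIs in 4600 cells, 50.8% of them in cholangiocyte-like cells, the lining of the bile ducts, and 20.05% in mesothelial-like cells. In control 1 mesothelial-like cells held more (28.7% against 21.6%). Fibroblast-like (395 ± 195 CPM, SD, n = 6) and hepatocyte-like cells (394 ± 186) had the highest levels and did not differ beyond their spread. Cholangiocyte-like cells followed at 266 ± 137, under the hepatocyte-like cells in 6 of 6 libraries. A Cxcl1 UMI was seen in 71.4% of cholangiocyte-like and 76.3% of hepatocyte-like cells, against 0.615% of B-like cells. The genes closest to it across the 96 sums were Cc2d2a, Denn2b and Bmp1 (r = 0.88 each).

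Control 3 carried the most Cxcl1 in every main source. In cholangiocyte-like cells the levels were 174, 325 and 520 CPM in controls and 176, 196 and 206 in knockouts, with control 1 under all 3 knockouts (log2 difference -0.83, SE 0.396, edgeR adjusted p 0.588; 0% of 13673 genes called). Fibroblast-like cells had 589, 268 and 676 against 258, 197 and 380 CPM (log2 difference -0.87, SE 0.356, edgeR adjusted p 0.994), again overlapping. Mesothelial-like cells had 74.3, 147 and 239 against 52.2, 116 and 82.1 CPM (log2 difference -0.88, SE 0.526, edgeR adjusted p 0.473). Endothelial-like cells had 64.6, 47.3 and 121 against 65.4, 30.7 and 56.6 CPM (log2 difference -0.61, SE 0.401, edgeR adjusted p 0.775). The estimates were below 0 in all 4 classes, and none of them passed. Over the 9 classes tested they ran from -2.07 to -0.39. In neutrophil-like cells the log2 difference was -1.29 (edgeR adjusted p 0.613).

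Cxcl2 had 97886 UMIs, 75.6% of them in 914 neutrophil-like cells, where 97.3% of cells held one. T-like cells held 6.88%. Neutrophil-like cells were at 15246, 16128 and 22709 CPM in the controls and 10676, 13741 and 15508 in the knockouts. Knockout 3 lay above control 1, so the groups overlapped (log2 difference -0.44, SE 0.256, edgeR adjusted p 0.706; 0.0212% of 4713 genes called). Among the 16 classes granulocyte progenitor-like cells followed at 446 ± 197 CPM (SD, n = 6), lower in 6 of 6 libraries. Its nearest genes were Acod1 (r = 0.85), which makes itaconate in activated myeloid cells, Clec4d (0.84) and Hcar2 (0.82).

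Neutrophil-like cells formed 2 clusters with different Cxcl2 levels. Cluster 25 (537 cells, led by Acod1, Slc7a11 and Il1b, median 3198 UMIs) had 25466, 30330 and 28888 plain CPM in controls and 21004, 23471 and 31100 in knockouts. Cluster 30 (377 cells, led by Retnlg, Mmp8 and Ifitm6, median 7759 UMIs) had 6336, 6361 and 11469 against 6271, 10159 and 7153. Within each cluster the genotypes overlapped (exact permutation p 0.5 and 0.8). Cluster 25 made up 64.1, 55.4 and 77.3% of neutrophil-like cells in controls and 46.5, 46.6 and 55.2% in knockouts, with no overlap (exact permutation p 0.1). The part of this makeup in the class level was not tested.

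Lower in the order, Cxcl2 ran lower in all 3 knockouts than in any control in 3 classes, none of which passed. T-like cells had 81.6, 78.3 and 147 against 67.6, 51.1 and 75.4 CPM (log2 difference -0.65, SE 0.240, edgeR adjusted p 0.790), in a class with 0.00771% of 12972 genes called and 5.54% lower without overlap. NK/ILC1-like cells had 34.0, 49.1 and 113 against 31.5, 21.9 and 14.4 CPM (log2 difference -1.43, SE 0.519, edgeR adjusted p 0.754; 0.0206% of 9713 genes called, 6.43% lower without overlap). Cholangiocyte-like cells had 24.8, 31.7 and 64.9 against 20.5, 18.9 and 24.3 CPM (log2 difference -0.97, SE 0.360, edgeR adjusted p 0.511; 7.6% lower without overlap). Control 3, highest in each, had the largest share of neutrophil-like cells, 6.0% of its cells. The dissociation genes ran lower without overlap in T-like cells (33251, 32066 and 33541 against 27069, 24328 and 30917 CPM) and NK/ILC1-like cells (39156, 39377 and 42733 against 33517, 30785 and 35391), and higher in cholangiocyte-like cells. Their part was not tested.

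B-like cells, which should lack Cxcl2, held a UMI in 1.81% of cells (median depth 4792.5 UMIs), against 7.73% of T-like (5209.5) and 5.77% of NK/ILC1-like cells (6284). In T-like cells 2 clusters stood out, cluster 12 with 3222 Cxcl2 UMIs and cluster 4 with 2542. Cluster 12 (1137 cells) was led by Il23r, Il17a and Trdc, genes of interleukin-17-producing gamma-delta T cells. It had 615, 505 and 987 plain CPM in controls and 243, 472 and 247 in knockouts, without overlap (exact permutation p 0.1). The share of all genes that separate within this cluster was not computed. The same cluster made up 7.26, 12.0 and 9.92% of T-like cells in controls and 6.22, 5.75 and 4.79% in knockouts (exact permutation p 0.1). The part of this makeup in the class level was not tested. Cluster 4 (2205 cells, led by Foxp3, the regulatory T cell factor) had 224, 218 and 222 against 402, 162 and 312 CPM, which overlapped.

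In endothelial-like cells Cxcl2 was at 27.1, 41.5 and 272 CPM in controls and 57.7, 16.2 and 44.2 in knockouts, and 15 of 2632 cells held 50% of these UMIs. Control 3 alone was high (log2 difference -1.53, SE 0.975, edgeR adjusted p 0.774), and without it the difference was 0.20. The summed neutrophil markers in the same cells were 208, 240 and 838 CPM in controls and 363, 127 and 167 in knockouts, with control 3 again highest. Their part in the Cxcl2 level was not tested. Over the 15 classes tested for Cxcl2 the log2 differences ran from -2.22 in fibroblast-like to 0.58 in mature dendritic-like cells.

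Cx3cl1 (ENSMUSG00000031778, chr8:94772009-94782427, plus strand), the membrane-bound ligand, had 3247 UMIs in 2158 cells, 40.8% in cholangiocyte-like and 28.1% in mesothelial-like cells. In control 1 and knockout 1 the mesothelial-like cells held more (31.8% against 17.8%, and 41.4% against 25.3%). Fibroblast-like cells had the highest level (43.7 ± 19.4 CPM, SD, n = 6), which did not differ beyond its spread from mature dendritic-like cells (31.6 ± 16.1) and these not from cholangiocyte-like cells (24.95 ± 4.39). Within the endothelium its level was highest in arterial-like cells in every library, at 122, 54.1 and 53.1 plain CPM in controls and 121, 79.0 and 17.7 in knockouts. Venous-like cells had 1.96 to 8.59 CPM, and sinusoidal-like cells had no Cx3cl1 UMI in the 4 libraries with enough cells. The closest genes over the 96 sums were Arhgef40 (r = 0.84), Ube2e2 (0.83) and Jup (0.82), the last a junction protein.

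Of the 5 ligands, Cx3cl1 alone had positive estimates in both of its main sources. Cholangiocyte-like cells had 21.8, 28.1 and 20.1 CPM in controls and 22.4, 31.8 and 25.5 in knockouts (log2 difference 0.16, SE 0.169, edgeR adjusted p 0.795). Mesothelial-like cells had 12.6, 15.9 and 14.8 against 16.7, 19.6 and 16.6 CPM. All 3 knockouts were above the controls there, which 12.3% of genes in that class also were, and the difference did not pass (log2 difference 0.28, SE 0.143, edgeR adjusted p 0.356). In endothelial-like cells the values were 16.3, 13.1 and 5.42 against 9.25, 17.5 and 5.28 CPM (log2 difference -0.13, SE 0.537, edgeR adjusted p 0.965). Over the 6 classes tested the log2 differences ran from -0.13 to 0.28.

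**Figure D3:**
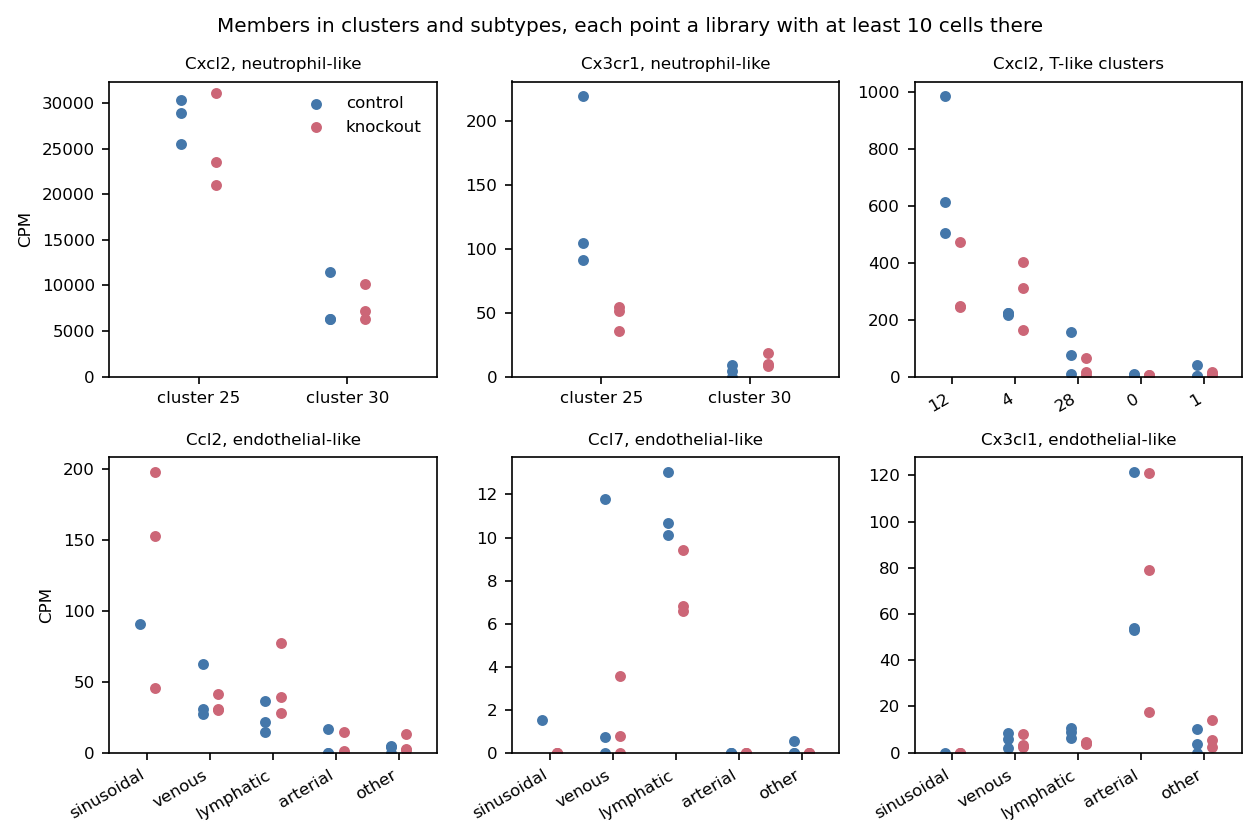
Plain CPM (vertical axes) of Cxcl2 and Cx3cr1 in neutrophil-like clusters, Cxcl2 in T-like clusters, and Ccl2, Ccl7 and Cx3cl1 in endothelial-like subtypes; each point is a library with at least 10 cells there, blue for control and red for knockout. Cxcl2 in cluster 25 lies between 21004 and 31100 CPM in the 6 libraries, and Cx3cl1 is highest in arterial-like cells.

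Ccr2 (ENSMUSG00000049103, chr9:124101950-124113557, plus strand), the receptor of CCL2 and CCL7, had 12373 UMIs in 5471 cells: 45.6% in T-like, 26.8% in cDC1-like and 12.3% in NK/ILC1-like cells. In control 3 cDC1-like cells held more, 49.4% against 23.2% in T-like cells. Among the 16 classes cDC2-like (234 ± 111 CPM, SD, n = 6) and cDC1-like cells (220 ± 39.6) came first without differing beyond their spread. The cDC1-like cells were above NK/ILC1-like cells (92.6 ± 12.6) in 6 of 6 libraries. A Ccr2 UMI was present in 68.8% of cDC1-like cells, against 0.473% of B-like cells. Among cDC1-like cells with a Ccl2 UMI, 86.5% held Ccr2, against 63.4% of those without, and 30.6% against 17.8% after thinning. Both the ligand and its receptor were read in the same cells of this class.

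No genotype difference in Ccr2 passed. In cDC1-like cells it was at 193, 157 and 240 CPM in controls and 217, 258 and 255 in knockouts, with control 3 inside the knockout range (log2 difference 0.30, SE 0.171, edgeR adjusted p 0.967). T-like cells had 61.0, 57.3 and 63.1 against 77.5, 73.4 and 59.5 CPM (log2 difference 0.22, SE 0.117, edgeR adjusted p 0.883). Plasmacytoid dendritic-like cells, known for type I interferon, had 90.8, 48.2 and 70.6 against 64, 116 and 160 CPM (edgeR adjusted p 0.842; 0.0211% of 4738 genes called). Each of these sets overlapped, and over the 7 classes tested the log2 differences ran from -0.46 to 0.79. Srgap3 (r = 0.84), Slc9a9 and Ms4a6c (0.83 each) were the genes closest to Ccr2.

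Cxcr2 (ENSMUSG00000026180, chr1:74153989-74161246, plus strand), the receptor of CXCL1 and CXCL2, had 1288 UMIs, 81.0% in neutrophil-like and 10.6% in granulocyte progenitor-like cells. Its nearest genes over the 96 sums were Il1f9 (r = 0.94), Mrgpra2b and C5ar1 (0.93 each). C5ar1 encodes the C5a receptor of neutrophils. In neutrophil-like cells Cxcr2 was at 163.2, 162 and 252 CPM in controls and 216, 191 and 202 in knockouts. All 3 knockouts lay inside the control range (log2 difference 0.03, SE 0.237, edgeR adjusted p 0.990). Within the neutrophil clusters it was higher in cluster 25 (232, 220 and 296 against 337, 243 and 243 plain CPM) than in cluster 30 (93.2, 121 and 166 against 156, 173 and 166) in 6 of 6 libraries.

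Cx3cr1 (ENSMUSG00000052336) had 13834 UMIs in 5543 cells, and most of them lay outside the myeloid classes: 24.8% in mesothelial-like, 22.5% in cholangiocyte-like, 21.6% in endothelial-like and 10.0% in T-like cells. The highest levels were in endothelial-like (111.7 ± 22.3 CPM, SD, n = 6), fibroblast-like (107 ± 27.0) and smooth muscle-like cells (105 ± 17.3), which did not differ beyond their spread. A UMI was present in 40.2% of endothelial-like and 45.5% of mesothelial-like cells, against 2.27% of B-like cells. GENCODE M21 gives the gene chr9:119901616-120069879 on the minus strand, 168.264 kb, while RefSeq gives 120048683 to 120068296, 19.614 kb. The longer interval overlaps 9 other genes, 3 of them (Gorasp1, Csrnp1 and Xirp1) on the same strand. Across the 96 sums the correlation of Cx3cr1 with Csrnp1 was 0.57, and 845 of 9674 genes had a higher one. Which annotation release was used for counting is not given in the sources used here, so UMIs of the receptor itself and of the rest of that interval cannot be told apart. The genes closest to Cx3cr1 were Socs3 (r = 0.83), an inhibitor of cytokine signalling, Rin2 (0.81) and Kif1c (0.81).

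Endothelial-like cells had 126, 82.6 and 106 CPM of Cx3cr1 in controls and 147, 109 and 99.8 in knockouts, which overlapped (log2 difference 0.18, SE 0.197, edgeR adjusted p 0.840). Their share of cells with a UMI was 41.0, 30.2 and 40.7% against 47.6, 43.1 and 44.2%, without overlap (exact permutation p 0.1), and overlapped after thinning to 1000 UMIs. By subtype the sinusoidal-like cells had the most, at 258 plain CPM in control 3 and 320, 445 and 372 in the knockouts. Over the 12 classes tested for Cx3cr1 the log2 differences ran from -1.37 to 0.27.

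In neutrophil-like cells Cx3cr1 was at 48.0, 89.3 and 60.3 CPM in controls and 29.4, 21.5 and 17.8 in knockouts, from 15, 16 and 82 against 57, 15 and 6 UMIs. The groups did not overlap, as for 5.9% of genes lower in this class, and the fitted level was 2.58-fold lower (group means 65.9 ± 21.2 CPM in controls and 22.9 ± 5.93 in knockouts, SD, n = 3 each; log2 difference -1.37, SE 0.345, edgeR adjusted p 0.308). The share of neutrophil-like cells with a UMI overlapped, at 9.38, 8.93 and 15.7% against 9.09, 8.22 and 6.90%. Cluster 25 had 105, 220 and 91.0 against 54.2, 51.8 and 36.0 plain CPM, without overlap (exact permutation p 0.1), with no share over all genes computed for the cluster. Cluster 30 had 4.66, 0 and 8.93 against 18.5, 10.1 and 8.09. Summed B cell markers in neutrophil-like cells were 394, 480 and 254 CPM in controls and 104, 221 and 94.98 in knockouts, and endothelial markers 99.2, 184 and 108 against 60.9, 97.6 and 71.2. Both ran lower without overlap, and their part was not tested.

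B-like cells had 8.15, 6.23 and 5.80 CPM of Cx3cr1 in controls and 4.66, 3.82 and 3.58 in knockouts. These did not overlap either (log2 difference -0.75, SE 0.243, edgeR adjusted p 0.634; 0% of 11305 genes called, 6.18% lower without overlap). The dissociation genes in B-like cells summed to 33284, 35135 and 37940 CPM in controls and 31110, 29468 and 32259 in knockouts, also without overlap, and their part was not tested.

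The myeloid cells that define these axes were scarce. Neutrophil-like cells were 0.815, 0.631 and 6.0% of cells in controls and 3.91, 2.30 and 1.26% in knockouts, which overlapped (exact permutation p 1). Only 35 macrophage-like and 23 monocyte-like cells were found, 15 of the latter in knockout 1, so they were pooled and not compared. Pooled macrophage-like cells had 468 CPM of Ccl2 (exact Poisson 95% interval 392 to 555), 224 of Ccl7 (172 to 286), 6342 of Cxcl2 (6053 to 6640) and 97.9 of Cx3cr1 (65.0 to 141). The Ccl7 came from 5 cells, and 50 of its 64 UMIs from control 3. No Cxcr2 UMI was seen there, which allows up to 10.5 CPM. Monocyte-like cells had 420 CPM of Ccr2 (342 to 510) and 811 of Ccl2 (701 to 933), but 194 of the 195 Ccl2 UMIs came from knockout 1. The intervals cover counting error only.

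Over 16 cell classes, 65 gene by class tests of the 8 genes were possible. By edgeR's quasi-likelihood test with Benjamini-Hochberg adjustment over all genes of a class, 0 of the 65 were called, 10 had an unadjusted p under 0.05 and 43 had an estimate below 0 (49.8% of tests over all genes). DESeq2 also called 0, with 10 under 0.05. Over all genes, 6.98% of tests had an unadjusted p under 0.05. Summed over whole libraries, Ccl2 was at 18, 26.1 and 66.2 CPM in controls and 26.1, 20.6 and 29.9 in knockouts, and Cxcl1 at 33.6, 107 and 202 against 40.1, 45.9 and 77.1. None of the 8 genes was called there or had an unadjusted p under 0.05, and 0% of 18363 genes were called. In such sums fewer cells of a class and less RNA per cell cannot be told apart.

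The wider pathway was read from lists of other chemokines, receptors and decoys, growth factors, regulators and inflammatory signals. In 626 gene by class tests 0 were called. Among 17 regulators in endothelial-like cells, 14 had an estimate below 0 and 8 an unadjusted p under 0.05 (over all genes 48.9% and 6.75%), with a median log2 difference of -0.28 against 0.0073 over all genes. In mesothelial-like cells 15 were below 0 and 7 under 0.05 (all genes 50.2% and 16.6%; median -0.40 against -0.0017). In fibroblast-like cells 15 were below 0 and 2 under 0.05 (all genes 49.7% and 3.06%, median -0.27 against 0.0020). The lean was not particular to these classes. In T-like cells and in whole-library sums 16 of 17 were below 0 (medians -0.074 and -0.22), and in plasmacytoid dendritic-like cells 14 (median -0.32). Near-even classes were granulocyte progenitor-like (8 of 17), mature dendritic-like (9 of 17) and cDC2-like cells (7 of 15). Cebpb, a transcription factor of acute inflammation, was at 469, 554 and 320 CPM in endothelial-like cells of controls and 188, 212 and 234 in knockouts (log2 difference -1.08, SE 0.202, edgeR adjusted p 0.728). Il6, an acute-phase cytokine, was at 83.4, 94.7 and 114 against 17.8, 35.7 and 73.4 CPM in fibroblast-like cells (log2 difference -1.08, edgeR adjusted p 0.994). Tnf was at 9.24, 10.8 and 17 against 4.52, 4.34 and 4.82 CPM in cholangiocyte-like cells (log2 difference -1.47, edgeR adjusted p 0.324). Each of these 3 sets ran lower without overlap, as did 6.36, 4.74 and 7.6% of all genes in those classes, and none passed.

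Ccl3, a chemokine of the wider list, was at 2227, 2918 and 3450 CPM in neutrophil-like cells of controls and 873, 1394 and 2395 in knockouts, with knockout 3 above control 1 (log2 difference -0.89, edgeR adjusted p 0.506). In cDC1-like cells Ccl9 ran the other way, at 1.07, 2.69 and 3.03 against 10.2, 8.27 and 9.79 CPM (log2 difference 1.95, SE 0.404, edgeR adjusted p 0.455). Ccl9 encodes a CCR1 ligand of myeloid cells.

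The dissociation list, which shares Atf3 and Zfp36 with the regulators, differed by class. In endothelial-like cells its genes summed to 62841, 71103 and 71871 CPM in controls and 43232, 49419 and 60795 in knockouts, without overlap, and 23 of 24 had an estimate below 0. In cholangiocyte-like cells their sum ran higher in the knockouts (47750, 54489 and 54760 against 59682, 56466 and 57442 CPM). The list was split there, with 9 of 24 estimates below 0 and a median log2 difference of 0.12. The Cxcl1, Cxcl2 and Tnf estimates in that class were below 0, and none passed the edgeR test. In fibroblast-like and mesothelial-like cells the sums overlapped, yet all 24 genes had an estimate below 0 in each of them. The median log2 differences were -0.31 in fibroblast-like, -0.51 in mesothelial-like and -0.38 in endothelial-like cells. The part of these genes in the other results was not tested.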

How the data were processed

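Liver cells of 6 mice (3 knockout, 3 control) were read as deposited count matrices of raw UMI counts per gene and cell. Per the submitters' processing notes, mm10, Cell Ranger 7.1.0 and Seurat 4.1.1 were used; the annotation release and whether intronic reads were counted are not given in the sources used here.

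Kept cells had 300 or more genes and no more than 20% of UMIs from mitochondrial genes, and 906 cells over a doublet score of 0.273 (scanpy's Scrublet, whose automatic threshold worked in 4 of 6 libraries) were removed. Cells were clustered without the 8 genes (scanpy 1.11.5; 3000 variable genes, 40 components, Leiden resolution 2) and named from marker lists. Members and lists were chosen with earlier results of these data known. Raw counts were summed per class and library where every library had at least 10 cells (16 classes). Knockout and control were compared with edgeR 4.0.16 (quasi-likelihood, TMM, low-count filter, Benjamini-Hochberg over all genes of a class, threshold 0.05), and with DESeq2 1.42.0 as an alternative. Single values were compared by 2-sided exact permutation tests over mice, and cells thinned to 1000 or 2000 UMIs. The text gives the 8 genes in their source classes and endothelial-like cells, the other classes tested by their range, and names Sting1, up to 3 genes of smallest p per list in endothelial-like and leading source cells, and the 3 genes with the highest r to each of the 8 (mean CPM at least 10). Ccl9 and Ccl3 are such list genes.

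Same-numbered samples deviated together with correlations of 0.222, 0.0295 and 0.408, so the numbers were not taken to pair the mice. Library pairs differed by more than sampling noise. Depth limits sparse genes: 3 UMIs are the limit that a count of 0 allows. Other alternatives were no filter, another normalization, doublets kept, resolution 1, cells with leukocyte UMIs left out and each mouse left out.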

Additional observations from a re-analysis of the deposited data

How the results depend on the processing

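Of 38 log2 differences under 476 alternatives, 445 kept direction and side of the threshold, 17 reversed and 14 passed where the reported fit did not; 32 of the 38 never reversed. The 6 that reversed were small or rested on few cells, and the cause was not tested. Ccl2 in cDC1-like cells was 0.016 with doublets kept, 0.027 with a replicate block and -0.35 to 0.30 with a mouse left out. Ccl2 in endothelial-like cells was 0.065 without cells holding leukocyte UMIs and -0.43 to 0.11 with a mouse left out. With a mouse left out, Cxcl2 in endothelial-like cells ranged from -1.97 to 0.20, Cx3cl1 there from -0.65 to 0.23, Cx3cr1 there from -0.010 to 0.33, and Cxcr2 in neutrophil-like cells from -0.073 to 0.34; the last was -0.21 with doublets kept.

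Of the tests of the 8 genes, 0 were called with each mouse left out, with DESeq2 and with the replicate block (21 unadjusted p under 0.05 of 71), and 1 (Ccl2 in fibroblast-like cells) with no filter; its log2 difference ranged from -1.59 to -1.18 with a mouse left out (edgeR adjusted p 0.321 to 1). Of the pathway tests, 0 were called as reported, 13 with DESeq2, 4 with the replicate block, and 0 to 7 with a mouse left out (7 without control 1, 3 without control 3, 2 without knockout 3). With DESeq2 these included Cebpb and Lif in endothelial-like, Tnf in cholangiocyte-like, Il1r1 in T-like and Ccl4 in cDC1-like cells. Over all genes 5 calls became 355 with DESeq2, 780 with no filter, 125 with the block and 3 to 156 with a mouse left out. Of 16 comparisons of shares of cells with a UMI, 3 did not overlap as reported, 0 when thinned to 1000 or to 2000 UMIs, and 3 to 7 with a mouse left out. How often such shares separate over all genes was not computed, so these counts have no background, and fewer mice separate more easily. With doublets kept or at resolution 1 no monocyte-like or macrophage-like cells were named. The same-numbered samples correlated at 0.222, 0.0295 and 0.408. Differently numbered mice reached higher values, 0.503 for control 1 with knockout 2 and 0.547 for control 2 with knockout 3. The numbers were not taken as a pairing.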

Other observations

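Cells outside the named classes also held these transcripts. Unnamed cluster 29, led by Il1rl1 and Arg1, had 475, 180 and 415 plain CPM of Cxcl2 in controls and 169, 144 and 191 in knockouts, which overlapped (exact permutation p 0.2). Cx3cr1 was also high in 2 small clusters, which both had Pde4c, Dnah12 and Il12rb1 among their leading genes. T-like cluster 45 (56 cells), with no T cell marker among its leading genes, had 660, 303 and 666 CPM. These values are of control 1, control 2 and knockout 3, the libraries with at least 10 cells there. Cholangiocyte-like cluster 42 (139 cells) had 181 to 280 CPM in 5 libraries.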
